A study of Mus musculus with 2 samples.

Results

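A group of 10 genes for costimulatory and checkpoint receptors of T cells was examined: Icos, Ctla4, Pdcd1, Tnfrsf4, Tnfrsf9, Cd40lg, Tigit, Lag3, Cd27 and Cd28. They were taken by name, with earlier results of these data known, and are 10 of the 33696 genes in the deposited matrices. All were found under the Ensembl identifiers ENSMUSG00000026009 for Icos, ENSMUSG00000026011 for Ctla4, ENSMUSG00000026285 for Pdcd1, ENSMUSG00000029075 for Tnfrsf4, ENSMUSG00000028965 for Tnfrsf9, ENSMUSG00000031132 for Cd40lg, ENSMUSG00000071552 for Tigit, ENSMUSG00000030124 for Lag3, ENSMUSG00000030336 for Cd27 and ENSMUSG00000026012 for Cd28. The study sequenced the RNA of sorted live lung cells of adult mice to compare lungs with and without GFI1, a transcriptional repressor needed for normal blood and immune cell development. The knockout is described as a germline one and all mice as kept on the C57BL6/J background, and no treatment was named for either group. The methods speak of duplicate samples per genotype, of which 1 library labelled GFI1 KO and 1 labelled WT were analysed here, each labelled as from mouse 1. With 1 library per label no value has a spread between mice, no test was made, and genotype, mouse and library cannot be told apart. KO-labelled and WT-labelled below name the library a cell came from.

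A T cell is activated by its antigen receptor together with costimulation. CD28 and ICOS are costimulatory receptors of the same family. CD28 is present on resting T cells, and ICOS appears on activated and follicular helper T cells, regulatory T cells and some innate lymphocytes. CTLA-4 binds the ligands of CD28, CD80 and CD86, with higher affinity, restrains activation, and is abundant in regulatory T cells. PD-1, encoded by Pdcd1, binds PD-L1 and PD-L2 and dampens signals of the antigen receptor after activation. TIGIT and LAG-3 are further inhibitory receptors. OX40 (Tnfrsf4), 4-1BB (Tnfrsf9) and CD27 belong to the tumour necrosis factor receptor family and promote survival and expansion through TRAF adaptors, and CD40 ligand (Cd40lg) is the molecule with which helper T cells stimulate B cells and dendritic cells.

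The 10 genes were followed in 6 classes of cells. Within the clusters of T cells, Foxp3-positive cells had a UMI (unique molecular identifier, 1 captured transcript) of Foxp3, the regulatory T cell factor, other CD4 cells had a Cd4 but no Foxp3 UMI, CD8 cells had a Cd8a or Cd8b1 UMI, and Trdc-positive cells had a UMI of Trdc, the constant gene of the T cell receptor delta chain. NK and innate lymphoid cells were cells without a Cd3e UMI in clusters named from markers. The classes held 28 KO-labelled and 67 WT-labelled Foxp3-positive cells, 91 and 507 other CD4 cells, 383 and 1159 CD8 cells, 88 and 98 Trdc-positive cells, 215 and 2000 NK cells, and 7 and 120 innate lymphoid cells. A further 215 KO-labelled and 663 WT-labelled T cells passed no gate. Antibody tags read with the RNA matched the gates: 98.5 to 100% of cells in both CD4 classes had at least 30 UMIs of the CD4 tag, and 97.9 and 98.9% of CD8 cells as many of the CD8a tag. Of Trdc-positive cells, 0 KO-labelled and 10 WT-labelled ones (10.2%) reached that level for the CD4 tag, and 21.6 and 23.5% had a UMI of Trac, the alpha chain's constant gene. The NK1.1 tag reached it in 88.8% of KO-labelled and 47.0% of WT-labelled NK cells. Ncr1 was found in 83.7 and 86.7% of NK cells and Gata3 in 100 and 93.3% of innate lymphoid cells. None of the 18 tags was directed against the protein of a member.

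The libraries differed in depth, with medians of 10950 gene UMIs per KO-labelled and 5908.5 per WT-labelled cell over all cells kept. Within the 6 classes the medians were closer, 3686 to 4994 and 3550.5 to 4943 UMIs over the genes kept. The libraries shared 74 cell barcodes, 2 of them in these classes. Gfi1, the targeted gene, was at 3.43 CPM (UMIs scaled to the depth of the library or class, interval 3.05 to 3.83) in the library labelled GFI1 KO and at 3.58 CPM (3.25 to 3.94) in that labelled WT. Within the classes Gfi1 ranged from 15 to 372 CPM under the KO label and from 0 to 25.0 CPM under the WT label. Over whole libraries the Gfi1 count thus did not tell the labels apart. By class it was higher under the KO label in Foxp3-positive, other CD4, NK and innate lymphoid cells, the last from 9 UMIs in 7 cells. In CD8 and Trdc-positive cells its ratios, 1.48 (0.939 to 2.29) and 0.872 (0.293 to 2.55), were within counting error. The sources do not say which part of the gene the allele lacks, and counts taken at the 3′ end check nothing if that part lies elsewhere. Every direction below is therefore one between 2 labelled libraries. All intervals are 95% intervals and cover counting error only.

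Cd28, Ctla4 and Icos lie next to each other on chromosome 1 in the RefSeq gene order, Lag3 lies next to Cd4 on chromosome 6, and Tnfrsf4 next to its relative Tnfrsf18 on chromosome 4. RefSeq promoter sequences (GRCm38.p6, an earlier build than the GRCm39 of the count files) matched 6 of the 10 members at 7 start sites. The 250 bases before the start are shown for Ctla4, Pdcd1 and Tnfrsf9, the members among these 6 whose level differed most between the libraries in other CD4 cells. Capitals mark AATC, the core of the sequence GFI1 binds, or its reverse complement GATT. The windows are chr1:60908775-60909024 on the plus strand for Ctla4, chr1:94052554-94052803 on the minus strand for Pdcd1 and chr4:150919905-150920154 on the plus strand for Tnfrsf9, each written 5′ to 3′ along the gene.
Ctla4: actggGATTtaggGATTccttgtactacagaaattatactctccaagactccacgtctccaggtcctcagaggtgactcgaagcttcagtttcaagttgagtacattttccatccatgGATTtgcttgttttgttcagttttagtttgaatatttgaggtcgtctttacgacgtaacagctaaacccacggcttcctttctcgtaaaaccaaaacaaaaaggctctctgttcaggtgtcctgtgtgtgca
Pdcd1: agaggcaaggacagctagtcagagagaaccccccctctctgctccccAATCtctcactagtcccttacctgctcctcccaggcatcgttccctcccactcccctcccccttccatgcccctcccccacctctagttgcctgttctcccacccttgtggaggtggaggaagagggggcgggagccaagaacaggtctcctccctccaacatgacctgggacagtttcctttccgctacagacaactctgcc
Tnfrsf9: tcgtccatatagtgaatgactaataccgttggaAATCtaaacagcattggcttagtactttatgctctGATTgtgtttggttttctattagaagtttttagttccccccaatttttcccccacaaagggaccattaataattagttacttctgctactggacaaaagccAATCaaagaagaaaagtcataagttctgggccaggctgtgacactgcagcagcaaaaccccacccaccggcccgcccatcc
The Ctla4 window held 3 matches, all on the opposite strand, the Pdcd1 window 1, and both Tnfrsf9 start sites 3 each. The windows of Tnfrsf4, Tigit and Cd27 held 0. Of all 32851 windows of this length, 69.0% held at least 1 match of AATC on either strand, and 0.514% held the longer form TAAATCAC, which contains AATC and had 0 matches in the members. A match of 4 letters is a description of the sequence, not a binding site.

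**Figure D1:**
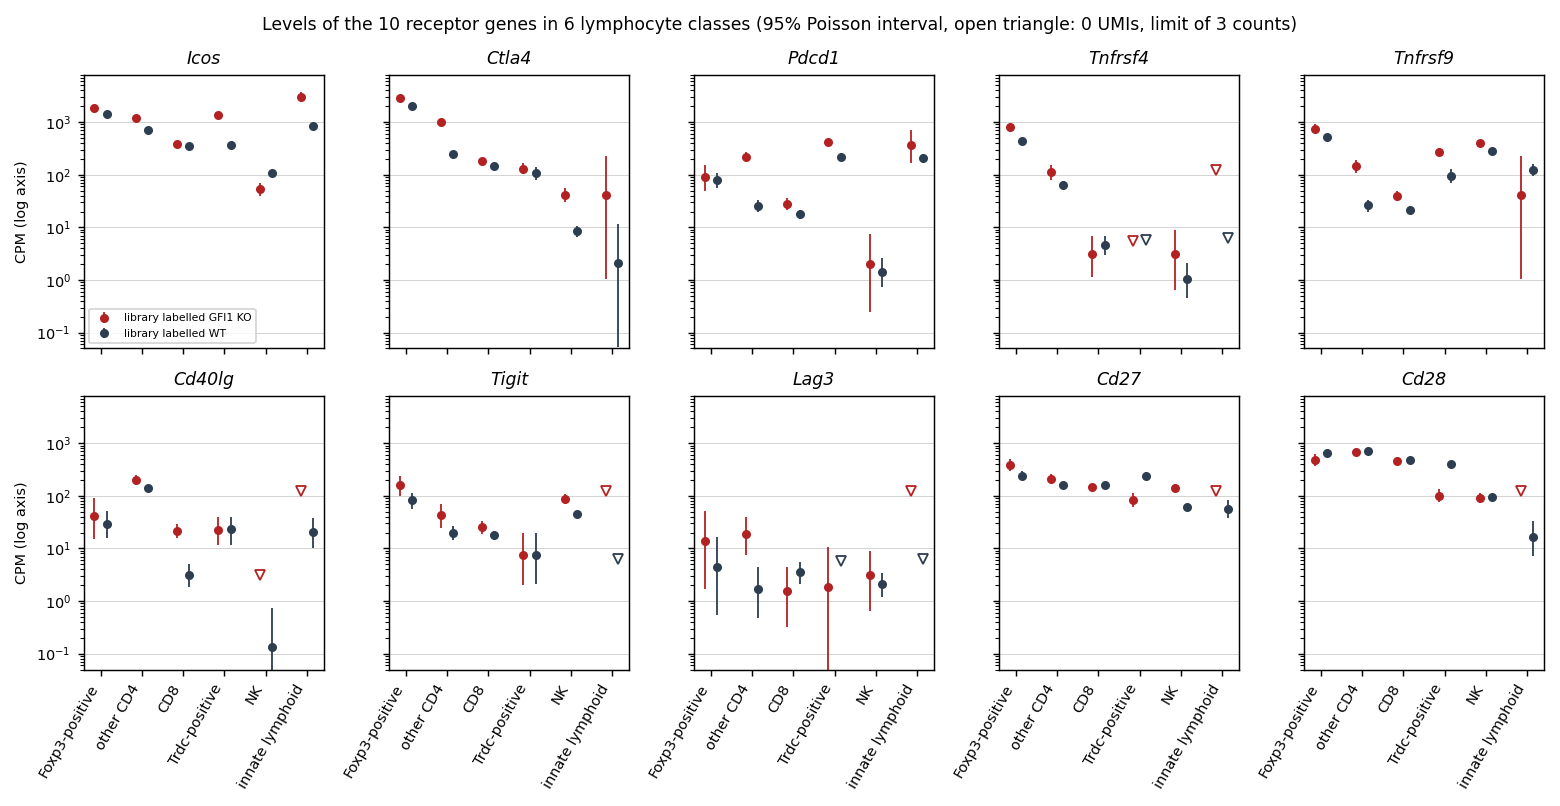
Level of each receptor gene in CPM (log axis) in the 6 classes, in the library labelled GFI1 KO (red) and that labelled WT (dark), with 95% Poisson intervals. Open triangles mark 0 UMIs and stand at the level of 3 counts. Foxp3-positive cells were highest for Ctla4, Tnfrsf4, Tnfrsf9 and Tigit in both libraries, and Pdcd1 was highest in Trdc-positive and innate lymphoid cells.

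Most members were higher under the KO label in both CD4 classes, while Trdc-positive and NK cells had members with intervals on either side of 1. Summed over the 10 genes, the level was 7383 CPM (6946 to 7841) in KO-labelled and 5484 (5268 to 5707) in WT-labelled Foxp3-positive cells, a ratio of 1.35 (1.25 to 1.45). Cd3e and Trac, general T cell genes, were higher there too, with ratios of 1.57 (1.22 to 2.02) and 1.36 (1.09 to 1.7). Foxp3 and Cd4 were within counting error, at 1.04 (0.763 to 1.39) and 1.11 (0.691 to 1.72). The 8 T cell markers summed to 7537 against 5231 CPM and the 6 cycling markers to 884 against 2117 CPM. Whether the members rose beyond such genes was not tested. In other CD4 cells the T cell markers summed to 7000.5 against 6168 CPM. The member sum there was 3812 against 2084 CPM, a ratio of 1.83 (1.72 to 1.94). In CD8 cells it was 1297 against 1196 CPM, a ratio of 1.09 (1.04 to 1.14). The log2 ratio there was 0.12, and 0.04 when all gene UMIs were in the denominator. In Trdc-positive cells the sum was 2404 against 1459 CPM, a ratio of 1.65 (1.51 to 1.80). Icos alone gave 727 of the 1283 KO-labelled and 190 of the 764 WT-labelled UMIs of that sum, so its ratio is no general rise of the members. In NK cells the sum was 828 against 604 CPM, a ratio of 1.37 (1.27 to 1.48). The 7 KO-labelled innate lymphoid cells gave 3468 CPM from 84 UMIs, against 1259 CPM, a ratio of 2.76 (2.17 to 3.47). The last ratio reversed, to -0.31 on the log2 scale, when cells called doublets were kept, and to -3.75 when each library was clustered on its own, and no direction is read from that class.

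Each count of members was set beside the share of all genes with at least 20 UMIs in the same class. In Foxp3-positive cells 0 of 8 members with that many UMIs differed 2-fold or more in either direction, against 14.6% of all genes. In other CD4 cells 4 of 9 did, all of them higher under the KO label, against 13.7% of all genes. In CD8 cells it was 2 of 10, against 8.24%, in Trdc-positive cells 4 of 7, against 21.3%, in NK cells 3 of 6, against 13%, and in innate lymphoid cells 3 of 4, against 39.5%. Ratio intervals that left out 1 were found for 7 of 8 members in Foxp3-positive cells, against 16.1% of all genes, 7 of 9 in other CD4 cells, against 20.5%, 5 of 10 in CD8 cells, against 39.0%, 5 of 7 in Trdc-positive cells, against 37.1%, 5 of 6 in NK cells, against 33.2%, and 1 of 4 in innate lymphoid cells, against 7.12%. The CD8 share was near its background and is no result about the members. Such an interval narrows as UMIs rise, and the members were not matched to all genes for UMIs. Ctla4 in Foxp3-positive cells, for one, had 405 and 903. The shares by interval therefore do not by themselves show more change in the members than in other genes. The median log2 ratio of the members was 0.50, 0.81, 0.23, 0.29, 0.76 and -0.03 in these 6 classes, and that of all genes lay between -0.06 and 0.02. Scaling each class by the median ratio of its well-counted genes moved values by 0.37 on the log2 scale in innate lymphoid cells. The ratios given for that class are not scaled for this shift.

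**Figure D2:**
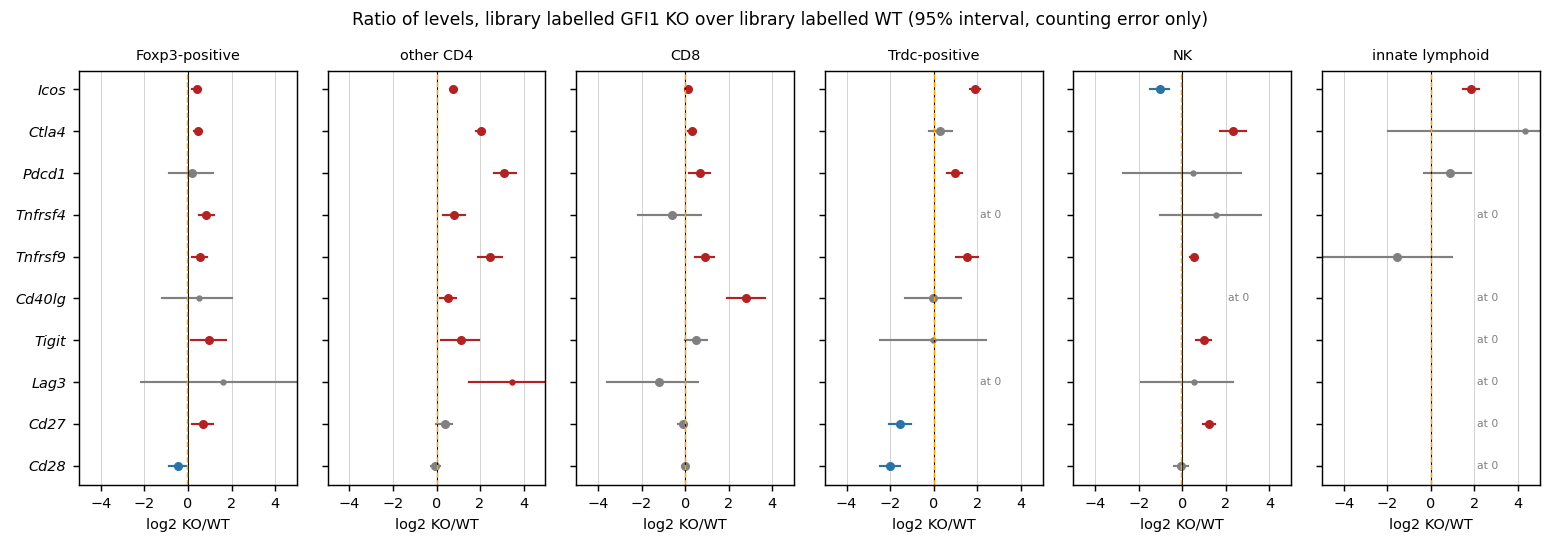
Log2 ratio of each receptor gene, KO-labelled over WT-labelled, by class, with 95% intervals for counting error. Red intervals lie above 0, blue below, grey ones hold 0, small points have fewer than 20 UMIs over both libraries, "at 0" marks a gene without UMIs in 1 or both libraries, and the dashed line is the median of all genes. Pdcd1 in other CD4 cells (3.12) and Cd28 in Trdc-positive cells (-2.0) lie far to either side.

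Icos, the inducible costimulator, was ordered differently over the classes in the 2 libraries. Its level was 1851 CPM (1635 to 2087) in KO-labelled and 1399 CPM (1291 to 1513) in WT-labelled Foxp3-positive cells, a ratio of 1.32 (1.14 to 1.53). Trdc-positive cells stood at 1362 CPM (1265 to 1465) under the KO label against 363 CPM (313 to 418) under the WT label. That ratio of 3.75 (3.20 to 4.43) kept its direction in 11 of 11 alternative settings, between 1.89 and 2.25 on the log2 scale. KO-labelled Trdc-positive cells thus ranked above other CD4 cells, at 1181 CPM, whereas WT-labelled ones, ranked below other CD4 cells at 695 CPM, could not be told from CD8 cells at 349 CPM. NK cells went the other way, with 53.3 CPM (39.8 to 69.9) against 109 CPM (102 to 117), a ratio of 0.489 (0.362 to 0.647). In CD8 cells the ratio was 1.10 (1.01 to 1.2).

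The highest Icos level under the KO label, 3014 CPM (2362 to 3789), was that of the innate lymphoid cells, and it rested on 7 cells. Their Icos counts were 35, 17, 8, 7, 6, 0 and 0 UMIs, so that 1 cell gave 47.9% of all. Without that cell the level was 1850.4 CPM (1309 to 2539.8) and the ratio to the 836 CPM of WT-labelled cells 2.21 (1.54 to 3.09) instead of 3.60 (2.77 to 4.63). With doublet calls kept the log2 ratio was 0.01.

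Cd28, the receptor for the first costimulatory signal, differed little in the large classes. Other CD4 cells had 680.5 CPM (599 to 769.5) under the KO label against 704 CPM (671 to 739) under the WT label. CD8 cells had 465 (435 to 496) and 473 CPM (455 to 492), and NK cells 92.2 (74.1 to 113) and 94.7 CPM (87.9 to 102). The intervals of these 3 ratios, 0.843 to 1.10, 0.910 to 1.06 and 0.773 to 1.21, leave out a 2-fold difference in counting error. Trdc-positive cells were the exception, with 101 CPM (76.0 to 132) against 405 CPM (352 to 463), a ratio of 0.250 (0.182 to 0.338). KO-labelled Trdc-positive cells were thereby no longer told from NK cells, whereas WT-labelled ones had 4.28 times the Cd28 level of NK cells. Foxp3-positive cells had 480.2 (374 to 608) and 655 CPM (582 to 735), which gave a ratio of 0.733 (0.555 to 0.956). This was the opposite direction to the other members with a ratio interval that left out 1 in that class, all 6 of which were higher under the KO label.

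Among the 6 classes, Tnfrsf4 (OX40) was found almost only in the CD4 lineage, but these classes held only 66.0% of its KO-labelled and 50.1% of its WT-labelled UMIs. Its level was 793 CPM (654 to 953) in KO-labelled and 441 CPM (381 to 507) in WT-labelled Foxp3-positive cells, a ratio of 1.80 (1.42 to 2.28). The share of these cells with a Tnfrsf4 UMI was not higher under the KO label, at 19 of 28 against 51 of 67 cells. Other CD4 cells had 113 (81.1 to 152) and 64.6 CPM (54.7 to 75.8), which gave a ratio of 1.74 (1.21 to 2.47), but 1 cell gave 26.2% of the KO-labelled UMIs there. In CD8 and NK cells the level was 1.05 to 4.63 CPM. Trdc-positive cells held 0 Tnfrsf4 UMIs in both libraries, which allows a level of up to 6.91 CPM under the KO and 7.05 CPM under the WT label (upper bound of the exact Poisson interval).

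Tnfrsf9 (4-1BB) was highest in Foxp3-positive cells and next in NK cells, in both libraries. The levels were 745 (610.2 to 899.8) and 513 CPM (448 to 584) in Foxp3-positive cells, and 402 (363 to 443) and 282 CPM (269.9 to 294) in NK cells, with ratios of 1.45 (1.14 to 1.83) and 1.43 (1.28 to 1.59). In Trdc-positive cells it was at 274 (231 to 322) against 95.5 CPM (70.9 to 126), a ratio of 2.86 (2.06 to 4.03). In other CD4 cells it was at 145 (109 to 189) against 26.1 CPM (20 to 33.5), a ratio of 5.54 (3.77 to 8.13). CD8 cells had 39.6 and 21.3 CPM, a ratio of 1.86 (1.38 to 2.5). Taken over whole classes, Tnfrsf9 was the only member whose interval lay above 1 in all 5 classes other than innate lymphoid cells. In innate lymphoid cells 1 UMI faced 59.

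Cd27, whose product marks subsets of γδ T cells and NK cells, moved in opposite directions in these 2 lineages. Trdc-positive cells had 82.5 CPM (59.9 to 111) under the KO label against 241 CPM (200.5 to 287) under the WT label, a ratio of 0.343 (0.237 to 0.486). NK cells had 142 (119.7 to 168) and 61.0 CPM (55.5 to 66.8), which gave a ratio of 2.34 (1.92 to 2.83). In Foxp3-positive cells Cd27 was at 389.7 and 242 CPM, a ratio of 1.61 (1.15 to 2.25), while the ratios in other CD4 cells, 1.29 (0.994 to 1.64), and CD8 cells, 0.923 (0.805 to 1.05), were within counting error.

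Cd40lg had its highest level in other CD4 cells, at 201 CPM (158 to 252) and 139 CPM (124 to 155), which gave a ratio of 1.45 (1.11 to 1.87). CD8 cells, in which it was near 0 under the WT label, had 42 UMIs among 383 cells under the KO label and 17 UMIs among 1159 cells under the WT label. Those are 21.6 (15.6 to 29.2) and 3.15 CPM (1.83 to 5.04), which gave a ratio of 6.86 (3.82 to 12.9). A single cell gave 23.8% of the 42 KO-labelled UMIs. With CD4 and CD8 cells gated on antibody tags the log2 ratio in CD8 cells was 1.89 in place of 2.78. Trdc-positive cells had 12 UMIs in each library.

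Ctla4, the first of the inhibitory receptors, was led by Foxp3-positive cells, followed by other CD4 and CD8 cells, in both libraries. Foxp3-positive cells had 2818 CPM (2551 to 3107) under the KO and 2041 CPM (1909.6 to 2178) under the WT label, a ratio of 1.38 (1.23 to 1.55). In other CD4 cells the levels were 1002 (903 to 1109) and 247 CPM (227 to 268), which gave a ratio of 4.06 (3.55 to 4.63). The step from Foxp3-positive to other CD4 cells was thus 2.81-fold under the KO label and 8.26-fold under the WT label. CD8 cells had 179 and 144 CPM, a ratio of 1.25 (1.09 to 1.42). NK cells had 42.0 (30.1 to 57.0) and 8.43 CPM (6.49 to 10.8), which gave a ratio of 4.98 (3.28 to 7.49). The log2 ratio there was 2.32, and 0.77 from 4 and 22 UMIs when cells were thinned to equal depth. In Trdc-positive cells the ratio of 1.23 (0.851 to 1.78) was within counting error, and 1 cell gave 33.9% of the WT-labelled UMIs.

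Pdcd1 was highest in Trdc-positive cells in both libraries, at 422 CPM (368 to 481) and 218 CPM (179.6 to 262), which gave a ratio of 1.94 (1.54 to 2.45). Its level there could not be told from that of innate lymphoid cells, 372 (169.9 to 705) and 204 CPM (166 to 248). Other CD4 cells had 219.7 CPM (175 to 273) from 82 UMIs under the KO label and 25.2 CPM (19.2 to 32.6) from 59 UMIs under the WT label. This ratio, 8.70 (6.15 to 12.4), was the largest of any member with at least 20 UMIs. It put other CD4 cells above Foxp3-positive cells under the KO label, whereas Foxp3-positive cells were 3.13-fold above other CD4 cells under the WT label. Within Foxp3-positive cells Pdcd1 was at 90.5 (48.2 to 155) and 79.1 CPM (55.1 to 110.0), a difference within counting error. There 1 cell gave 69.2% of the 13 KO-labelled UMIs, and Pdcd1 was found, unthinned, in 3 of 28 KO-labelled and 21 of 67 WT-labelled cells. CD8 cells had 28.3 and 17.8 CPM, a ratio of 1.59 (1.12 to 2.24).

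Tigit followed the same order in both libraries, Foxp3-positive, NK, other CD4 and CD8 cells, the last 2 of which could not be told apart. It was at 160.1 (101 to 240.2) and 81.3 CPM (57.0 to 113) in Foxp3-positive cells and at 88.1 (70.5 to 109) and 44.3 CPM (39.6 to 49.2) in NK cells. The ratios were 1.97 (1.11 to 3.41) and 1.99 (1.55 to 2.53). Lag3 was too sparse to compare, with 16 UMIs in the KO-labelled and 41 in the WT-labelled cells of the 6 classes. Of all Lag3 UMIs, these classes held 22.5 and 15.2%, against 43.5 to 81.1% for the other members. Dendritic-like cells had Lag3 at 23.9 CPM (14.2 to 37.8) and 27.8 CPM (23.0 to 33.2). In other CD4 cells 7 KO-labelled and 4 WT-labelled Lag3 UMIs gave a ratio of 11 (2.79 to 51.0).

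Each class joined several subclusters of lymphocytes, and their mix differed between the libraries. The members had been withheld from the genes used for clustering, but Tnfrsf4 and Ctla4 were among the 10 leading genes of subcluster 4. Of other CD4 cells, 53.8% of KO-labelled and 15.8% of WT-labelled cells lay in subcluster 4, led by Itgb8, Foxp3 and Lrrc32, and 38.5 and 76.3% in subcluster 2, led by St8sia6, Pdlim4 and Ly6c1. Foxp3 was detected in 20.5% of the cells of subcluster 4, and a cell without a Foxp3 UMI can still express the gene, so the class of other CD4 cells may hold such cells. Of Trdc-positive cells, 71.6 and 17.3% lay in subcluster 7, led by Zbtb7c, Fam83a, Kcnk1, Fstl4 and Il23r, and 18.2 and 63.3% in subcluster 3, led by Ifngas1, Trgv2 and Dlg5. Of CD8 cells, 30.8 and 77.6% lay in subcluster 1 and 42.6 and 7.85% in subcluster 3. NK cells were divided almost by library, with 82.8 and 0.50% in subcluster 8 and 9.30 and 83.7% in subcluster 0.

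**Figure D3:**
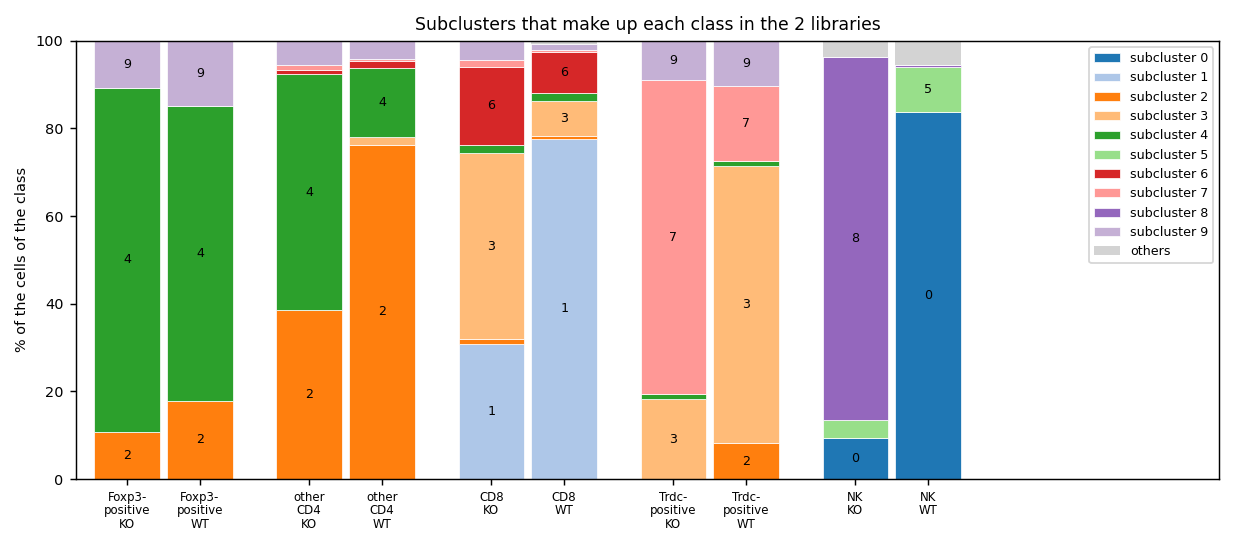
Share of the cells of each class (percent) that lay in each subcluster, for KO-labelled and WT-labelled cells side by side. Subcluster 4 takes 53.8% of KO-labelled and 15.8% of WT-labelled other CD4 cells, and subcluster 7 takes 71.6 and 17.3% of Trdc-positive cells.

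The levels were therefore also taken within subclusters, a comparison added after the data had been seen. Other CD4 cells of subcluster 2 had Icos at 263 CPM under the KO label against 416 CPM under the WT label, a ratio of 0.633 (0.437 to 0.890), below 1 where the whole class was above. Their Cd28 ratio was 0.693 (0.525 to 0.900) and that of Ctla4 1.25 (0.712 to 2.07). In subcluster 4 the other CD4 cells kept higher levels under the KO label for Ctla4, at 1725 against 708 CPM, a ratio of 2.44 (2.07 to 2.88), and for Pdcd1, at 398 against 101 CPM, a ratio of 3.95 (2.63 to 6.04). Tnfrsf9 and Cd27 were higher there too, with ratios of 2.47 (1.55 to 3.97) and 2.05 (1.37 to 3.07), and Icos had a ratio of 1.18 (1.03 to 1.35). Tnfrsf4, higher in the whole class, was within counting error in both, at 0.702 (0.445 to 1.08) in subcluster 4 and 0.201 (0.00500 to 1.16) in subcluster 2. Its ratio lay above 1 in subcluster 9, at 6.52 (2.65 to 15.8), from 11 UMIs in 5 KO-labelled and 13 in 21 WT-labelled cells. With subcluster 4 left out, the sum over the 10 members in other CD4 cells was -0.06 on the log2 scale in place of 0.87, Icos -0.15 in place of 0.77, Ctla4 0.31 in place of 2.02, and Tigit -1.27 in place of 1.12 (1 against 27 UMIs). Pdcd1 then rested on 4 and 23 UMIs. Tnfrsf9, Pdcd1 and Cd40lg stayed above 0 in each of 13 alternative settings, this one included, with lowest values of 1.73, 0.96 and 0.34. A value above 0 alone does not show that a ratio is independent of the mix of subclusters. Cd40lg in other CD4 cells had ratios of 1.26, 0.922 and 1.03 in subclusters 2, 4 and 9, all within counting error. Pdcd1 in subcluster 2 had a ratio of 5.82 (0.942 to 27.3) from 3 and 6 UMIs, also within counting error. In subcluster 2 the Tnfrsf9 ratio of other CD4 cells was 9.70 (2.34 to 38.2), from 5 and 6 UMIs.

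Foxp3-positive cells of subcluster 4 itself, 22 KO-labelled and 45 WT-labelled, had higher Ctla4, with a ratio of 1.28 (1.12 to 1.47), Tnfrsf4, with 1.60 (1.2 to 2.11), and Cd27, with 1.71 (1.14 to 2.58), and lower Cd28, with 0.660 (0.470 to 0.914), as in the whole class. Their Icos ratio was 1.13 (0.967 to 1.33), within counting error.

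Trdc-positive cells of subcluster 7 (63 KO-labelled and 17 WT-labelled cells) kept the directions of the whole class. Icos was at 2092 against 775 CPM, a ratio of 2.70 (2.05 to 3.62), Tnfrsf9 at 302 against 84.5 CPM, a ratio of 3.58 (1.59 to 9.98), and Pdcd1 at 649.9 against 423 CPM, a ratio of 1.54 (1.05 to 2.34). Cd27 and Cd28 were nearly absent under the KO label in this subcluster, with 3 and 1 UMIs against 6 and 8, and ratios of 0.107 (0.0174 to 0.502) and 0.0268 (0.000605 to 0.200). In subcluster 3 (16 and 62 cells) the same genes gave another picture. Icos had a ratio of 1.04 (0.660 to 1.59), Tnfrsf9 1.93 (0.808 to 4.33), Cd27 1.19 (0.781 to 1.78) and Cd28 0.961 (0.677 to 1.34), all within counting error. Pdcd1 was lower under the KO label at 109.8 against 265 CPM, a ratio of 0.414 (0.183 to 0.824).

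In CD8 cells, subclusters 1 and 6 had higher Ctla4 under the KO label, with ratios of 1.78 (1.45 to 2.18) and 2.72 (2.0 to 3.74), whereas Icos was within counting error in subcluster 1, with a ratio of 0.952 (0.797 to 1.13). Subcluster 6, led by Gzmk and H2-Q10, also had higher Pdcd1, Tnfrsf9 and Icos, with ratios of 1.72 (1.05 to 2.79), 2.22 (1.08 to 4.67) and 1.30 (1.06 to 1.59), and 11 Cd40lg UMIs against 0. The cycling subcluster 9 went against this, with Ctla4 and Pdcd1 ratios of 0.510 (0.303 to 0.834) and 0.257 (0.0765 to 0.687) in its 17 CD8 cells of each library. The 7 KO-labelled and 22 WT-labelled CD8 cells of subcluster 4 were mixed. Ctla4 and Icos were lower there, with ratios of 0.119 (0.0141 to 0.449) and 0.485 (0.233 to 0.915), and Tnfrsf9 had 0 UMIs against 23. Pdcd1 was higher, with a ratio of 5.95 (1.16 to 38.3) from 5 and 3 UMIs. In subcluster 3, which held 42.6% of KO-labelled CD8 cells, Ctla4 and Icos were within counting error. Cd27 and Cd28 were lower there, with ratios of 0.731 (0.576 to 0.929) and 0.810 (0.697 to 0.943). Tnfrsf9 was within counting error in subclusters 1, 3 and 9, from 0 against 28 UMIs in subcluster 1. So was Cd40lg in subclusters 1, 3, 4 and 9, with a ratio of 3.33 (0.556 to 14.6) in subcluster 1. KO-labelled Cd40lg UMIs numbered 3, 4, 2, 11 and 1 in subclusters 1, 3, 4, 6 and 9, of 42 in all CD8 cells. Of NK cells, subcluster 8 had 178 KO-labelled and 10 WT-labelled cells, and the Tnfrsf9 ratio there was 0.516 (0.373 to 0.731), below 1 where the whole class was above. Its Cd27 ratio was 1.57 (0.655 to 4.90) and its Icos ratio 0.942 (0.304 to 4.73), both within counting error. Subcluster 0, with 20 KO-labelled and 1673 WT-labelled NK cells, had lower Icos, at 0 against 597 UMIs (upper bound 0.890). Tnfrsf9 was within counting error there, with a ratio of 1.46 (0.777 to 2.51). Subcluster 5, with 9 and 207 cells, had higher Ctla4, at 4.06 (1.55 to 9.02), and lower Tnfrsf9, at 0.464 (0.211 to 0.887). Ctla4 was within counting error in subclusters 0 and 8. For NK cells a difference between the labels and one between subclusters cannot be told apart.

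**Figure D4:**
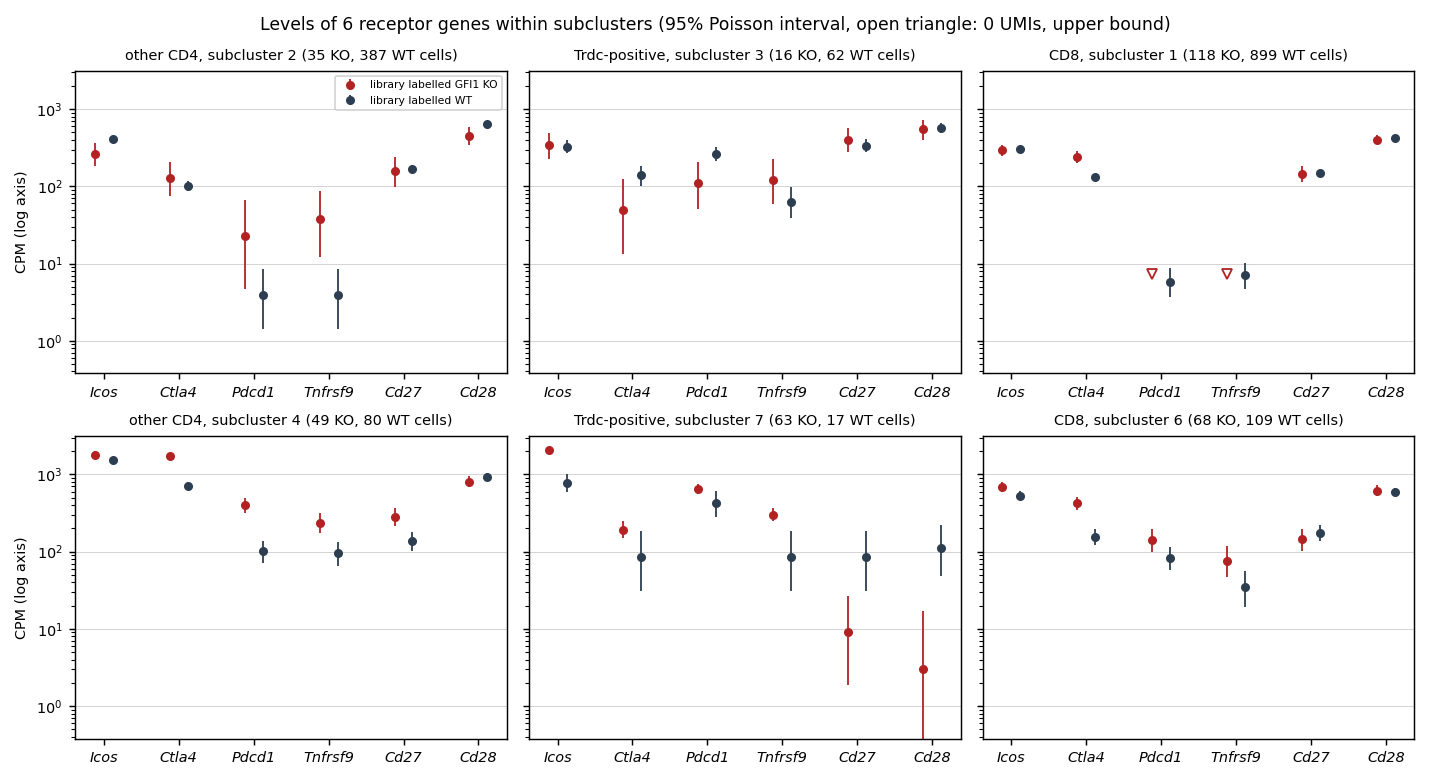
Level in CPM (log axis) of 6 receptor genes within pairs of subclusters of other CD4, Trdc-positive and CD8 cells, for KO-labelled (red) and WT-labelled (dark) cells with 95% Poisson intervals. Icos lies apart in Trdc-positive cells of subcluster 7 (2092 and 775 CPM) and together in subcluster 3, and Ctla4 and Pdcd1 lie apart in other CD4 cells of subcluster 4.

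Shares of cells with a UMI were taken after thinning each cell to 1500 UMIs, which left out 0 to 8 KO-labelled and 0 to 53 WT-labelled cells per class. Ctla4 was found in 92.6% (75.7 to 99.1) of KO-labelled and 82.1% (70.8 to 90.4) of WT-labelled Foxp3-positive cells, and in 52.8% (41.9 to 63.5) against 17.1% (13.9 to 20.7) of other CD4 cells. Icos was found in 73.6% (63.0 to 82.4) against 35.1% (25.6 to 45.4) of Trdc-positive cells, and Pdcd1 in 39.1% (28.8 to 50.1) against 18.6% (11.4 to 27.7). Pdcd1 was found in 19.1% (11.5 to 28.8) of KO-labelled and 2.79% (1.53 to 4.63) of WT-labelled other CD4 cells. Cd28 was found in 14.9% (8.20 to 24.2) against 36.1% (26.6 to 46.5) of Trdc-positive cells. Unthinned, these 6 pairs were 96.4 and 92.5%, 59.3 and 28.2%, 85.2 and 63.3%, 62.5 and 27.6%, 30.8 and 6.11%, and 25.0 and 63.3%. For Tnfrsf4 in Foxp3-positive cells the share did not follow the level. It was 44.4% (25.5 to 64.7) against 44.8% (32.6 to 57.4) thinned, and 67.9 against 76.1% unthinned.

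Alveolar macrophage-like cells, which should lack these receptors, gave 0 to 0.853% for any member in either library, with Cd27 the highest. Their median depths before thinning were 11315 and 11969 UMIs, and those of B-like cells 2978 and 3368. B-like cells gave 0 to 2.64%, with Ctla4 the highest and Cd27 at 2.05 and 1.92%. Ctla4 in NK cells, at 1.93 and 0.924% of cells, had intervals (0.529 to 4.87 and 0.549 to 1.46) that overlapped that of KO-labelled B-like cells, 1.62% (0.910 to 2.66). Both lay above the intervals of alveolar macrophage-like cells, 0.0813% (0.00984 to 0.293) and 0.239% (0.115 to 0.439). WT-labelled B-like cells, at 2.64% (2.11 to 3.26), lay above the WT-labelled NK interval. Unthinned, Ctla4 was found in 11.2 and 1.95% of NK cells and in 3.44 and 6.07% of B-like cells. In alveolar macrophage-like cells, which were deeper, it was found in 1.30 and 2.17%. Its unthinned NK share under the WT label was thus below both reference shares, and under the KO label above both. Tnfrsf4 shares in CD8 and NK cells, 0.205 to 0.519%, lay within the interval of WT-labelled B-like cells, 0.151 to 0.577%, and are read as background. Cd40lg in CD8 cells, at 2.62% (1.27 to 4.77) against 0.346% (0.0944 to 0.884), compares with at most 0.0314% in the reference cells. Lag3 in WT-labelled NK cells, at 0.616% (0.319 to 1.07), compares with at most 0.0717%. Unthinned, these NK cells had 0.750% and WT-labelled alveolar macrophage-like cells 0.595%, so no level above background is read from it.

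Many cells held UMIs of several members at once. At 1500 UMIs, 2 or more members were found in 92.6% of KO-labelled and 91.0% of WT-labelled Foxp3-positive cells, and in 75.3 and 56.2% of other CD4 cells, 63.2 and 42.3% of Trdc-positive cells, 36.7 and 35.4% of CD8 cells and 23.7 and 12.3% of NK cells. At least 3 were found in 49.4 and 23.5% of other CD4 cells. Icos and Pdcd1 were found together in 31 of 87 KO-labelled Trdc-positive cells, where the product of their shares gives 25.0 cells, and in 5 of 97 WT-labelled ones against a product of 6.31. Icos and Ctla4 shared 32 of 89 KO-labelled other CD4 cells against a product of 28.0, and 55 of 502 WT-labelled ones against 40.9.

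**Figure D5:**
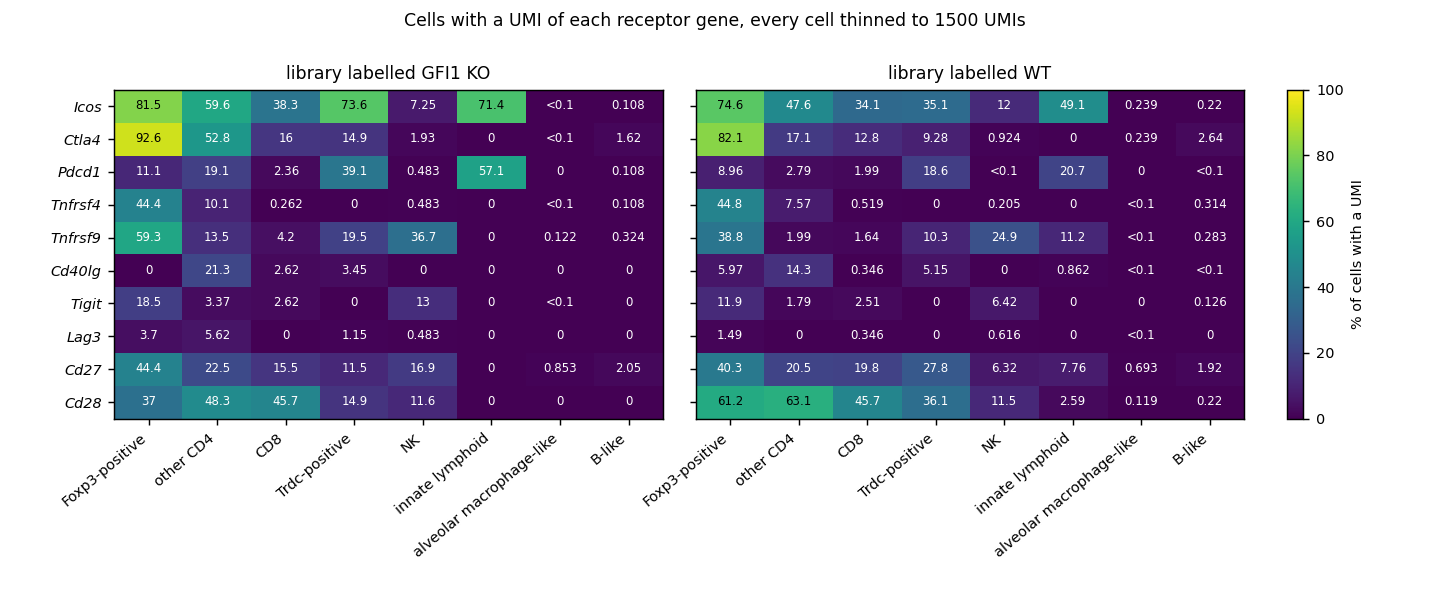
Percent of cells with a UMI of each receptor gene after thinning to 1500 UMIs, by class and in alveolar macrophage-like and B-like cells, for the library labelled GFI1 KO (left) and that labelled WT (right). Icos fills 73.6% of KO-labelled and 35.1% of WT-labelled Trdc-positive cells, and the reference cells stay at or below 2.64%.

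Ligands of these receptors were read in other cells of the lung, 4 of them named here after their values were seen. Cd86, a ligand of CD28 and CTLA-4, was at 1254 and 1155 CPM in B-like cells, 892 and 1133 CPM in dendritic-like cells and 619 and 705 CPM in monocyte-like cells of the KO-labelled and WT-labelled libraries. Icosl, the ligand of ICOS, was at 74.5 (56.3 to 96.7) and 64.9 CPM (57.5 to 73.0) in dendritic-like and 47.2 and 39.0 CPM in B-like cells. Tnfsf9, the ligand of 4-1BB, was at 189.6 and 249 CPM in interstitial macrophage-like cells. Cd274, which encodes PD-L1, was at 43.5 CPM in KO-labelled and 138 CPM in WT-labelled monocyte-like cells, and at 314 and 286 CPM in alveolar macrophage-like cells.

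Within the 6 classes 3 to 9 of the 14 ligands had at least 20 UMIs. Ratio intervals lay above 1 for 1 of 5 in Foxp3-positive, 4 of 6 in other CD4, 3 of 6 in CD8, 1 of 3 in Trdc-positive, 3 of 9 in NK and 0 of 4 in innate lymphoid cells, and below 1 for 1 in other CD4 and 1 in Trdc-positive cells. Over all genes, 6.92% had an interval above and 9.22% below 1 in Foxp3-positive, 10.3 and 10.2% in other CD4, 18.8 and 20.3% in CD8, 18.4 and 18.7% in Trdc-positive, 14.7 and 18.4% in NK, and 4.75 and 2.36% in innate lymphoid cells. The counts of this list and of the 3 lists that follow are to be read against these shares, again without matching for UMIs. Counts near them, such as 4 and 4 of 17 other receptors in CD8 cells, are no result about a list. The same holds for 0 and 2 of 14 signalling partners in Foxp3-positive cells. Lgals3, a ligand of LAG-3 that macrophages and monocytes express strongly, was higher under the KO label in 5 classes, from 2.92-fold (1.97 to 4.31) in Foxp3-positive to 8.38-fold (5.57 to 13.1) in Trdc-positive cells. Lgals3 was at 2076 and 1254 CPM in monocyte-like cells, of which there were 5285 KO-labelled and 805 WT-labelled. The 7 monocyte markers, 0 to 7 of which had a UMI in a class, summed to 984 CPM under the KO label and 392 under the WT label in CD8 cells. They were lower or within counting error under the KO label elsewhere, at 41.8 and 47.5 CPM in Foxp3-positive, 37.5 and 62.9 in other CD4, 163 and 380.1 in Trdc-positive, 245 and 589 in NK, and 0 and 18.7 in innate lymphoid cells. The sums were not split by marker, Ly6c2 being one of them, and how much of them was monocyte RNA was not tested. The part of these markers in the Lgals3 result was not tested either. Cd274 was higher under the KO label in NK cells, 2.61-fold (2.25 to 3.02), and in CD8 cells, 1.85-fold (1.56 to 2.18), and lower in Trdc-positive cells, with a ratio of 0.390 (0.259 to 0.577).

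Of the 18 other receptors of the same families, 3 were higher and 3 lower under the KO label of 14 with at least 20 UMIs in Foxp3-positive cells, 5 and 0 of 13 in other CD4, 4 and 4 of 17 in CD8, 2 and 5 of 15 in Trdc-positive, 4 and 6 of 13 in NK and 0 and 0 of 6 in innate lymphoid cells. Cd226, an activating receptor that shares ligands with TIGIT, was lower in Foxp3-positive, CD8 and NK cells, with ratios of 0.474 (0.249 to 0.836), 0.603 (0.526 to 0.690) and 0.163 (0.10 to 0.251). In NK cells that is 21.5 against 132 CPM, whereas Tigit was higher there. Trdc-positive cells had Tnfrsf25 (death receptor 3) at 124 against 13.4 CPM, a ratio of 9.25 (4.25 to 23.9), and Havcr2 (TIM-3) at 63.7 against 3.82 CPM. The inhibitory receptor Btla was lower, at 3.75 against 80.2 CPM, a ratio of 0.0467 (0.00548 to 0.180), and Slamf6 too, with 0.288 (0.170 to 0.468). Slamf6 was higher in NK cells, with 3.89 (2.81 to 5.33). The ratios of all lists are those of whole classes, and no values within subclusters are given for them. Subcluster 7 held 71.6 and 17.3% of Trdc-positive cells, and subcluster 8 held 82.8 and 0.50% of NK cells. In such classes these ratios cannot tell a difference between the labels from one in the mix of subclusters.

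Of the 13 regulators, 2 were higher and 2 lower of 13 in Foxp3-positive, 3 and 3 of 13 in other CD4, 4 and 6 of 12 in CD8, 5 and 5 of 12 in Trdc-positive, 5 and 6 of 11 in NK and 4 and 1 of 9 in innate lymphoid cells. Maf, which drives effector and follicular programs, was at 664 against 145 CPM in other CD4 cells, a ratio of 4.57 (3.86 to 5.39), and at 500.4 against 155 CPM in Trdc-positive cells, a ratio of 3.23 (2.51 to 4.2). Irf4 and Prdm1, factors of activated lymphocytes, were higher in Trdc-positive cells, with ratios of 10.1 (3.64 to 38.7) and 6.67 (2.6 to 21.9), and in CD8 cells, with 3.97 (2.53 to 6.30) and 2.07 (1.41 to 3.04). Tcf7, the factor of naive and memory T cells, was lower in Trdc-positive cells, at 80.6 against 351 CPM, a ratio of 0.229 (0.161 to 0.321), and in other CD4 cells, with 0.777 (0.656 to 0.915). Tox, a factor of sustained receptor signalling, was lower in CD8 cells, with 0.540 (0.487 to 0.597), whereas Pdcd1 was higher there.

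Of the 14 signalling partners, 0 were higher and 2 lower of 14 in Foxp3-positive, 4 and 3 of 14 in other CD4, 4 and 5 of 14 in CD8, 5 and 5 of 14 in Trdc-positive, 4 and 2 of 12 in NK and 0 and 0 of 7 in innate lymphoid cells. Traf1, an adaptor of the tumour necrosis factor receptors, was higher in 4 classes, with ratios of 2.31 (1.86 to 2.86) in other CD4, 1.77 (1.58 to 1.98) in CD8, 2.05 (1.52 to 2.78) in Trdc-positive and 2.0 (1.69 to 2.36) in NK cells. Themis and Trat1, which act beside the αβ T cell receptor, were lower in Trdc-positive cells, at 41.2 against 588 CPM and 13.1 against 153 CPM. These lists had been written with earlier results of these data known.

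Over the 12 points of 6 classes in 2 libraries, the genes most like Icos were Cnpy2 (Pearson's r = 0.95), Tnfrsf25 (0.94) and Siva1 (0.94). Among those most like Cd27 were Ppm1m (0.99) and Rhoh (0.98), and those most like Cd28 were Ms4a6b, Klhdc3 and B130055M24Rik, each at 0.98. Pdcd1 was followed most closely by E2f1 (0.95), Cxcr6 (0.94) and Mmp25 (0.94), Ctla4 by Nap1l4 (0.95), Mybl2 (0.93) and Cdca7 (0.92), Tnfrsf9 by Prr13 (0.94), Stx11 (0.91) and Osbpl3 (0.91), Tnfrsf4 by Rapgef5 (0.95), Neb (0.92) and Donson (0.91), Tigit by Zfp382 (0.95), Gbp3 (0.93) and Dgkh (0.92), and Cd40lg by Tesc (0.90), Ccr4 (0.88) and Lat (0.87). Among the members, Cd27 and Cd28 were the most alike at 0.93, followed by Icos and Pdcd1 at 0.85 and by Ctla4 and Tnfrsf4 at 0.84. The points share 2 libraries, and the KO-labelled innate lymphoid point holds 7 cells, so these values are descriptions of the 12 points.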

How the data were processed

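Live-sorted adult mouse lung cells, 1 library per genotype label, were sequenced by 10x 3′ chemistry. The authors deposited raw UMI counts per gene and antibody tag, made with Cell Ranger 9.0.1 per the submitters' processing notes, on GRCm39. Their treatment of doublets was not given in the sources used here.

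Cells with at least 500 UMIs, 200 genes and at most 20% mitochondrial UMIs were kept, 10495 KO-labelled and 19342 WT-labelled, and 346 and 1146 of them, called doublets by Scrublet, were set aside. CPM totals leave out 9538 ribosomal, mitochondrial and Gm genes. Cells were clustered with scanpy 1.11.5 and leidenalg 0.10.2 (2000 variable genes without the members or listed genes, 50 components, 15 neighbours, resolution 0.8, seed 0), in Python 3.11.15 with numpy 2.4.6, scipy 1.17.1, matplotlib 3.10.9 and R 4.3.3. Lymphoid clusters were clustered again. A T subcluster had a Cd3e UMI in at least 50% of cells, and NK and innate lymphoid ones at least 3 markers. Gates excluded cells with UMIs of another gate.

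UMIs were summed per class and library. Levels have exact Poisson intervals, ratios exact conditional binomial intervals and shares Clopper-Pearson intervals. These cover counting error only, and with 1 library per label no test was possible. The ratio intervals were tested on simulated data. Alternatives changed scaling, doublets, gates, tags, depth, resolution, joint clustering and filters.

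The members and lists were chosen with earlier results of these data known. Named were all members, per list and class at most 3 genes highest and 3 lowest by the ratio bound nearer to 1 with at least 30 UMIs, and the 3 genes most like each member with at least 100 UMIs by Pearson's r of log2(CPM + 1), 1 of which is not reported here.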

Additional observations from a re-analysis of the deposited data

Results flagged for a closer look

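These results were singled out because the ratio between the libraries pointed in opposite directions in 2 classes. For Icos the log2 ratio, KO-labelled over WT-labelled, was 1.91 in Trdc-positive and -1.03 in NK cells, a difference of 2.94. For Cd27 it was 1.22 in NK and -1.55 in Trdc-positive cells, a difference of 2.77. With 1 library per label neither difference was tested.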

How the results depend on the processing

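All values here are log2 ratios, KO-labelled over WT-labelled, unless named as percent. The summed level of the 10 members in Foxp3-positive cells was 0.43, 0.63 with gates applied without clusters and 0.20 with cells thinned to 1500 UMIs. In other CD4 cells it was 0.87, 0.98 without clusters, 0.76 with antibody tag gates, 0.97 thinned, 0.72 with gates of 2 UMIs and, chosen after seeing the data, -0.06 with subcluster 4, rich in Foxp3, left out (42 and 427 cells). That last setting also reversed Icos, to -0.15, and Tigit, to -1.27. In CD8 cells the sum was 0.12, and 0.04 with all gene UMIs in the denominator. In Trdc-positive cells it was 0.72, and 0.97 without clusters. In innate lymphoid cells it was 1.46, 1.10 scaled by the median ratio, 0.70 without clusters, -0.31 with doublet calls kept (25 and 135 cells) and -3.75 with each library clustered on its own (7 against 599 UMIs). The cause was not tested. The share of genes with at least 20 UMIs that were 2-fold apart was 14.6% in Foxp3-positive and 8.24% in CD8 cells. Over all genes with a UMI in both libraries it was 25.4 and 14.9%, which leaves out genes at 0 in either library.

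Of 523 values for single members under alternatives, 481 stayed within the interval of the reported value and 40 moved beyond it. Of values whose interval left out 0, 2 reversed. Icos in innate lymphoid cells was counted in 8 settings, against 9 in NK cells, with a lowest value of 0.01. The setting with each library clustered on its own, in which the sum of that class reversed, is thus not among those 8. Among values whose interval held 0, signs changed beyond it for Cd27 in other CD4 cells (-0.37 without subcluster 4), Pdcd1 in innate lymphoid cells (-1.0 with doublet calls kept) and Cd40lg in Trdc-positive cells (1.94 with gates of 2 UMIs). Cd28 in Trdc-positive cells ranged from -2.16 to -1.74, Cd27 there from -1.80 to -1.54, Pdcd1 in other CD4 cells from 0.96 to 3.38 and Ctla4 there from 0.31 to 2.53. Depth limits Lag3 in every class and most members in the 7 KO-labelled innate lymphoid cells. No paired analysis was possible because each label has 1 library, sharing only the number 1.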

Other observations

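Some member UMIs lay outside the 6 classes. Ctla4 was at 20.5 CPM in KO-labelled and 43.1 CPM in WT-labelled B-like cells. Tnfrsf9 was at 43.9 and 81.2 CPM, and Tnfrsf4 at 17.3 and 23.3 CPM, in dendritic-like cells. T cells that passed no gate held 52.3% of KO-labelled and 42.6% of WT-labelled Cd40lg UMIs, and 2.6 to 32.2% of those of the other members.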
